A study of Rattus norvegicus with 36 samples.

Results

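Among 36 rat livers, 7 carried a high array signal for Ephx2 and 29 a low one, with no animal in between. Ephx2 encodes soluble epoxide hydrolase, an enzyme of the cytosol and of peroxisomes. It hydrolyses fatty acid epoxides, among them the epoxyeicosatrienoic acids that cytochrome P450 enzymes make from arachidonic acid, to the matching diols. Liver is one of its main sites, and in rodents its level is known to respond to agonists of the nuclear receptor PPARalpha. The 2 sets of animals were chosen by the log2 value of the 1 probe set on the array that names Ephx2: above 7 was high, and 7 or below was low. Ephx2's own values are therefore given as a description, and the question put to the data was what else differed between the sets.

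The animals were male Harlan Sprague Dawley rats, 7 weeks old when dosing began, that received TBBPA-DBPE, a brominated flame retardant, or its vehicle, corn oil, by gavage. The 5 doses, from the highest, were 943, 94.3, 9.4, 0.94 and 0.1 mg/kg, and vehicle was the group at 0 mg/kg. Each of the 6 groups held 6 animals with 1 array each. Dosing lasted 5 days at 5 ml per kg body weight, and liver was taken from the left lobe 1 day after the last dose. All animals thus shared the gavage, the oil and the interval from last dose to sampling. The hour of sampling is not among the sample facts used here. Values are log2 expression values, in which a difference of 1 is 2-fold. The liver label was checked on 7 hepatocyte marker genes, whose mean level had a median over animals of 13.07 in the high set and 13.07 in the low set. Array medians lay between 4.59 and 4.66. Vehicle replicate 1, an animal of the high set, was the array least like the others (median correlation 0.992), so some of the results are also given without it.

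In the high set the Ephx2 signal was 8.57 in vehicle replicate 1, 8.65 in replicate 1 at 0.1 mg/kg and 8.46 in replicate 6 at 0.94 mg/kg. At 943 mg/kg it was 8.81, 8.46, 9.52 and 8.59 in replicates 1, 2, 4 and 5. The 29 low animals ran from 4.97 to 5.82 with a median of 5.31. The set means were 8.72 ± 0.37 (SD, n = 7) and 5.34 ± 0.22 (SD, n = 29), a difference of 3.38 on the log2 scale, or 10.4-fold. The values just inside the limit of 7 were 8.46 and 8.46, and those just outside it were 5.82 and 5.79. The empty interval of 2.64 between the sets was far wider than the second widest gap of 0.71, which lay below the highest animal. Every low value stood above every array median, but no detection call was used here, so whether the low signal is Ephx2 RNA was not tested. The probe sequences of this probe set were not used here either, and whether the split in array signal is a split in RNA level was not tested. In whole-liver RNA, fewer cells of a type and less RNA per cell cannot be told apart.

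**Figure D1:**
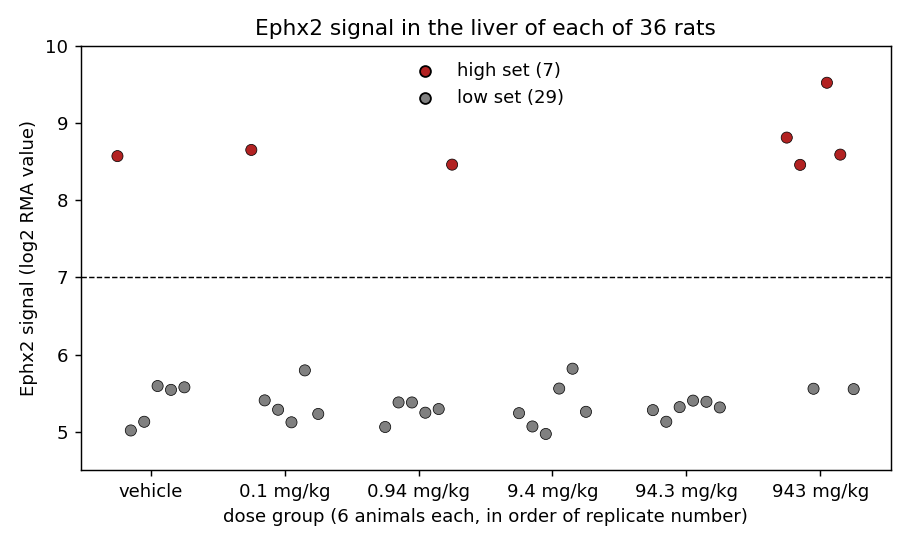
Ephx2 signal (log2 value, vertical axis) in each of 36 rats, by dose group; each point is 1 animal, red for the 7 high and grey for the 29 low, and the dashed line is the limit of 7. No animal lies between 5.82 and 8.46, and 4 of the 7 high animals are in the 943 mg/kg group.

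High animals were found in 4 of the 6 dose groups: 1 of 6 in vehicle, 1 at 0.1 mg/kg, 1 at 0.94 mg/kg, 0 at 9.4 and 94.3 mg/kg, and 4 at 943 mg/kg. Across the 6 groups this distribution did not pass Fisher's exact test (two-sided p = 0.0629). Vehicle against all dosed animals, 1 of 6 against 6 of 30, also did not pass (Fisher's exact test, p = 1). The rule did not use dose, but the count at 943 mg/kg was known when the sets were chosen, so neither p is independent of that choice. The first p also turned on single animals. Without vehicle replicate 1, replicate 1 at 0.1 mg/kg or replicate 6 at 0.94 mg/kg the exact p was 0.0237, without replicate 3 or 6 at 943 mg/kg it was 0.00860, and the highest value on leaving out 1 animal was 0.148. Within each group that held both sets, the high animals exceeded the low by a like amount: 3.20 in vehicle, 3.28 at 0.1 mg/kg, 3.19 at 0.94 mg/kg and 3.29 at 943 mg/kg. The low animals had group means from 5.27 to 5.55. The set difference and the dose can be told apart only in those 4 groups, which hold 24 animals.

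Few probe sets on the array had a gap as wide as that of Ephx2. Its own place is a description, since its values chose the sets. Ranked by the widest gap between neighbouring animals with at least 3 animals on each side, Ephx2 stood at place 4 of 31042 probe sets. The median gap was 0.0599, 12 probe sets had a gap over 1 and 4 had a gap over 2. The 3 ahead of Ephx2, named here after their values were seen, were 1370428_x_at with 5.21, Abhd3, which encodes an alpha/beta hydrolase-fold protein, with 3.95, and 1368718_at with 2.99. They divided the animals differently. At 1370428_x_at, which the probe table pairs with several genes, 21 animals lay above the gap, and these included all 7 Ephx2-high animals and 14 of the 29 low. At Abhd3, 8 lay above, of which 1 was Ephx2-high. At 1368718_at, for which the probe table gives no gene, 5 lay below, of which 3 were Ephx2-high.

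**Figure D2:**
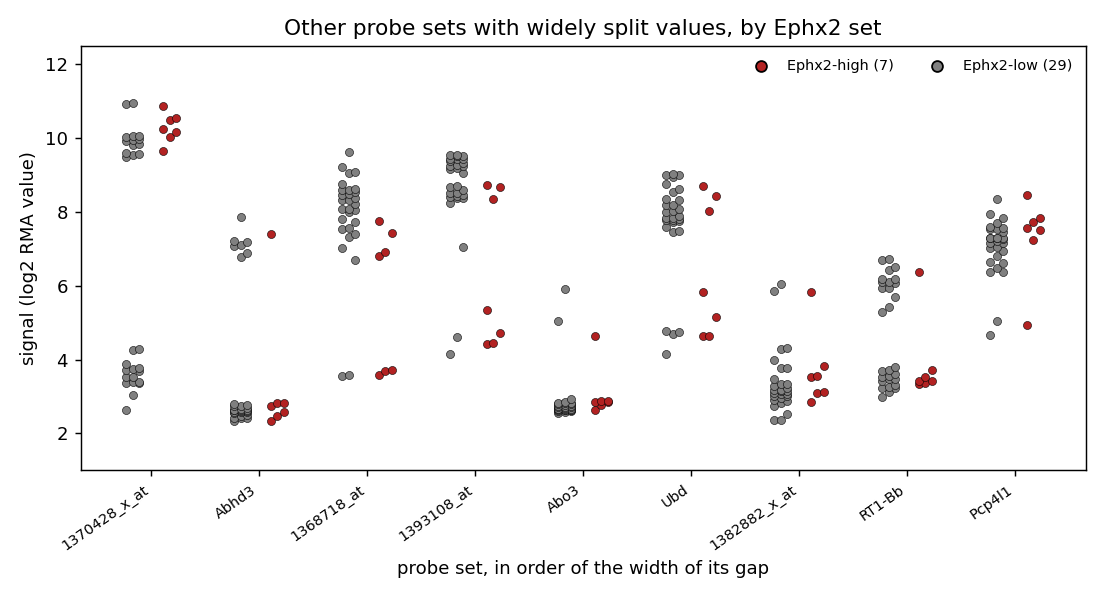
Signal (log2 value, vertical axis) of the 9 other probe sets with the widest gaps, each point 1 animal, grey for the 29 Ephx2-low and red for the 7 Ephx2-high. At 1370428_x_at all 7 red points lie in the upper cluster with 14 grey ones; at Abhd3, 1 red point lies above the gap with 7 grey ones.

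Across the rest of the transcriptome no probe set separated the livers as Ephx2 did. With dose group as a covariate in limma, 0 of 31041 other probe sets were higher in the high set at an adjusted p under 0.05 (0% called) and 0 were lower (0% called), the smallest adjusted p being 0.288. At an unadjusted p under 0.05, 1507 were higher (4.85%) and 1167 lower (3.76%), together 2674 beside 1552 that the threshold alone would give. An unmoderated linear model also passed 0 at the adjusted threshold, with 2672 at the unadjusted one. Without vehicle replicate 1 the 2674 became 1605, and the smallest adjusted p in limma was 0.820. For 0 probe sets did the sets not overlap (0% of those tested). The differences were small: 95.5% lay within 0.2 of 0 on the log2 scale, with a median SE of 0.0730, and the 95% interval excluded a 2-fold difference for 99.7% and a 1.5-fold difference for 98.3% of probe sets. Dim probe sets are in these shares and can show little.

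The genes with the smallest p, each by its brightest probe set, give the scale of what was seen, and none passed. Probe sets that name no single gene, and genes with LOC or RGD symbols, were left out of this choice. Prim2, a subunit of DNA primase, measured 6.07 to 6.32 in the high set (median 6.18) and 6.16 to 6.64 in the low set (median 6.34). All 7 high animals lay below the low median and 2 lay below the whole low range, a difference of −0.22 ± 0.048 (SE, limma, adjusted p = 0.288). Wdr20, a cofactor of deubiquitinating enzymes, measured 5.16 to 5.48 against 5.20 to 5.79, and its difference was −0.28 ± 0.068 (SE). A second probe set of Wdr20, 1382676_at, measured 0.049, the opposite sign. Atp10d, a phospholipid-transporting ATPase, differed by −0.24 ± 0.059 (SE) and Dynlt2b, a dynein light chain, by −0.41 ± 0.096 (SE). Pdcl1-ps1, annotated as a pseudogene, differed by −0.36 ± 0.076 (SE) and had all 7 high animals below the low median.

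In the upward direction Zfp420, a zinc finger protein, measured 5.78 to 6.26 in the high set (median 6.02) and 5.08 to 6.11 in the low set (median 5.79). Its difference was 0.41 ± 0.099 (SE, limma, adjusted p = 0.288), and 2 of 7 high animals lay above every low animal. The other 4 were dim, with means from 1.99 to 3.04 on a scale whose array medians lie near 4.6. They were Grik5, a kainate receptor subunit (0.27 ± 0.067, SE), Kcnn3, a calcium-activated potassium channel (0.31 ± 0.076), Ropn1l, a sperm flagellar protein (0.28 ± 0.069), and Scgb1a1, a secreted airway protein (0.23 ± 0.055). In vehicle, where the high animal was replicate 1, Kcnn3 differed by 0.67, Scgb1a1 by 0.47 and Ropn1l by 0.46. These were wider than in any other dose group, which was not so at Grik5 (0.27 in vehicle) or Zfp420 (0.47). Of the 1507 probe sets that were higher at the unadjusted threshold, 770 had a mean of 4 or less, against 318 of the 1167 that were lower. Of all 31041 probe sets, 12482 had such a mean.

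Large differences of 2-fold or more were measured at 9 probe sets, named here after their values were seen. At 1388202_at, without a gene in the probe table, the high animals read 2.75 in vehicle, 3.37 at 0.1 mg/kg, 5.69 at 0.94 mg/kg, and 3.61, 5.88, 5.31 and 3.99 at 943 mg/kg. The 29 low animals ran from 4.44 to 6.60 with a median of 5.86, so 4 of 7 high animals fell below the low range and 3 lay within it. The difference was −1.63 ± 0.35 (SE, limma, adjusted p = 0.288).

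Ugt2b, a UDP-glucuronosyltransferase that conjugates steroids and xenobiotics, was low in 2 of the 7 high animals by both of its probe sets. At 1387825_at replicate 1 at 0.1 mg/kg read 4.71 and replicate 1 at 943 mg/kg 5.08, while the other 5 high animals read 12.14 to 12.87. The low set ran from 12.27 to 12.86 with a median of 12.67. The second probe set, 1385247_at, read 1.86 and 2.58 in the same 2 animals and 8.03 to 9.59 in the low set. The differences were −2.48 ± 0.76 and −2.33 ± 0.70 (SE, limma, adjusted p = 0.360 and 0.337). Probe sets of UDP-glucuronosyltransferases can share sequence, so the signal may come from more than 1 family member, which also holds for the Cyp2a, Cyp2c, Gsta and RT1 probe sets named below.

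At 1368718_at the same 2 animals and vehicle replicate 1 read 3.58, 3.72 and 3.70, and the other 4 high animals 6.80 to 7.74. All 7 lay below the low median of 8.22, but the low set itself ran from 3.55 to 9.63, and the difference of −2.89 ± 0.67 (SE) did not pass in limma (adjusted p = 0.288). At 1370428_x_at all 7 high animals read 9.66 to 10.88, above the low median of 4.29 and within the low range of 2.64 to 10.95 (difference 3.76 ± 1.41, SE, limma, adjusted p = 0.455). The remaining 4 were 1393108_at with −2.33, the ubiquitin-like modifier Ubd with −1.62, the MHC class II chain RT1-Bb with −1.22 and the intestinal-type cadherin Cdh17 with 1.24, and the adjusted p in limma ran from 0.337 to 0.719.

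The next comparison was of the genes beside Ephx2. Ephx2 lies on chromosome 15 in the rat gene table (assembly GRCr8), and 20 of the 40 annotated genes within 20 places of it were measured, by 27 probe sets. None passed in limma (0 of 27). At an unadjusted p under 0.05, 4 of the 27 were higher (14.8%, beside 4.85% of all probe sets) and 3 were lower (11.1%, beside 3.76%). Differences ran from −0.26 to 0.23, at most 1.19-fold, and the farthest bound of any 95% interval was 0.54, or 1.45-fold, against 10.4-fold at Ephx2. On leaving out 1 animal, 3 to 4 were higher and 1 to 4 lower at the unadjusted threshold, with 1 lower without replicate 1 at 0.1 mg/kg. The neighbours' number is small and adjoining genes share a chromosome segment, so these shares are a description.

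**Figure D3:**
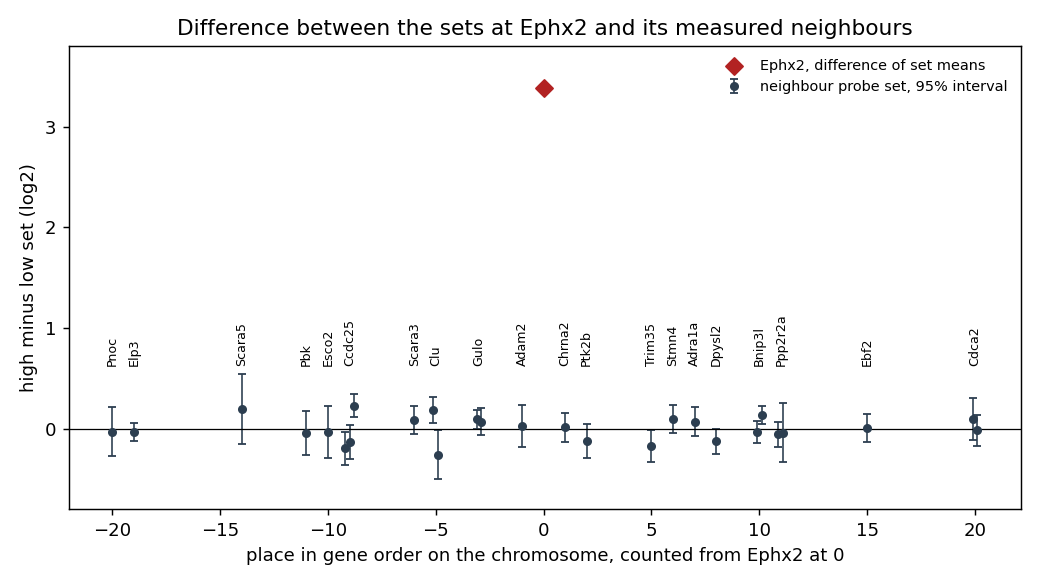
Log2 difference between the high and low sets (vertical axis) at Ephx2 (red diamond, difference of set means, not tested) and at the 27 probe sets of its 20 measured neighbours (points with 95% intervals from limma), by place in gene order counted from Ephx2. Neighbours lie between −0.26 and 0.23 and Ephx2 at 3.38.

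On either side, the nearest gene was Adam2, a sperm surface protein, and Chrna2, a nicotinic acetylcholine receptor subunit. Both were dim in liver. Adam2 differed by 0.026 ± 0.10 (SE). Chrna2 measured 3.58 to 4.11 in the high set (median 3.94) and 3.61 to 4.18 in the low set (median 3.89), a difference of 0.012 ± 0.073 (SE). The sets overlapped almost wholly at both genes, and the sign of each turned under other settings.

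Gulo, 3 places away, encodes the enzyme of the last step of ascorbic acid synthesis and is strongly expressed in rat liver. It measured 11.43 to 11.66 in the high set (median 11.53) and 11.30 to 11.62 in the low set (median 11.49), a difference of 0.095 ± 0.046 (SE, limma, adjusted p = 0.575). Its second probe set differed by 0.069 ± 0.065 (SE). Clu, 5 places away, encodes clusterin, a secreted chaperone that liver releases into plasma. By its brighter probe set Clu measured 11.81 to 12.19 against 11.55 to 12.20, a difference of 0.18 ± 0.063 (SE, limma, adjusted p = 0.406). The second Clu probe set, 1388246_at, had the opposite sign, −0.26 ± 0.12 (SE), and there vehicle replicate 1 read 6.76, apart from the other high animals.

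On the other side, Ptk2b, a cytoplasmic tyrosine kinase, differed by −0.12 ± 0.083 (SE) and Trim35, a ubiquitin ligase of the tripartite-motif family, by −0.17 ± 0.080 (SE). Trim35 measured 5.21 to 5.47 in the high set and 5.03 to 5.74 in the low set, so the ranges overlapped. Farther out, the 3 probe sets of Ccdc25 measured −0.20, −0.13 and 0.23, and those of Bnip3l, a receptor for the removal of mitochondria by autophagy, −0.036 and 0.13. The signs of different probe sets of 1 gene disagreed in these cases. The 0.23 of Ccdc25 came from a dim probe set (mean 1.98), whereas both Bnip3l probe sets were bright (means 9.25 and 9.23). At the Bnip3l probe set with 0.13, all 7 high animals lay above the low median and 3 above the low range (limma, adjusted p = 0.394). At the other, 6 of the 7 lay below the low median. Over the whole of chromosome 15, 27 of 614 probe sets were higher (4.40%) and 22 lower (3.58%) at the unadjusted threshold, and 0 passed. On the other chromosomes the shares were 4.76% and 3.68% of 20143 probe sets. The widest difference on chromosome 15 was at Clybl, 566 places from Ephx2, a mitochondrial enzyme of citramalyl-CoA breakdown, with −0.88 ± 0.24 (SE, limma, adjusted p = 0.288).

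The probe sets whose pattern was most like that of Ephx2 were ranked by how many of the 36 animals fell on the same side when divided at the midpoint of the set means. The best 10 placed 32 animals alike, where calling every animal low would place 29. Among them were Tbc1d7, a subunit of the TSC complex (0.20), Morf4l2, a chromatin factor of the MRG family (−0.16), Msra, which repairs oxidised methionine (−0.24), Cd59b, a complement regulator (0.19), Sytl3, a synaptotagmin-like protein (0.17), Fbxo6, an F-box protein (0.15), and the zinc transporter Slc39a3 (0.12). All differences were at most 0.24 in size. Msra lies on chromosome 15, 38 places from Ephx2. There the 4 high animals at 943 mg/kg read 7.93 to 8.12 and the 2 low ones 8.31 to 8.63, whereas in vehicle the high animal at 8.39 lay within the low range of 8.36 to 8.56.

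Genes of the pathways around soluble epoxide hydrolase were then read as lists, as counts beside the background. Of 392 measured genes in 28 lists, 0 passed in limma, and 31 were higher and 6 lower at the unadjusted threshold, beside 4.85% higher and 3.76% lower of all probe sets. In the list of epoxide hydrolases and epoxide-forming P450s, 10 of 16 measured genes were higher, with a median difference of 0.026 beside 0.0063 over all probe sets, and 2 of 16 were higher at the unadjusted threshold beside 4.85% of all probe sets. Without replicate 1 at 0.1 mg/kg the median was −0.011 and 1 was past it. These were Por, the reductase that passes electrons to microsomal P450 enzymes (0.26 ± 0.10, SE), and Cyp2c12, a female-predominant steroid hydroxylase of rat liver (0.58 ± 0.23). Cyp2c12 measured 10.78 to 11.39 in the high set and 9.02 to 11.44 in the low set, and all 7 high animals lay above the low median. Ephx1 and Ephx4, named because they belong to the same family, did not follow Ephx2. Ephx1, the microsomal epoxide hydrolase, measured 11.89 to 12.46 in the high set (median 12.08) and 11.79 to 12.60 in the low set (median 12.22), a difference of −0.042 ± 0.086 (SE, limma, adjusted p = 0.935). Ephx4 was dim and differed by 0.043 ± 0.096 (SE).

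Of 25 arachidonic acid and eicosanoid enzymes, 14 were higher, with 1 higher and 2 lower at the unadjusted threshold (4.85% and 3.76% of all probe sets). Pla2g2a, a secreted phospholipase that frees fatty acids, measured 4.96 to 7.38 against 4.86 to 8.06 (difference 0.70 ± 0.34, SE). Ptgis, prostacyclin synthase, differed by −0.28 ± 0.11 and Pla2g4a, the cytosolic phospholipase, by −0.25 ± 0.10. The list had a median of 0.028. When replicate 6 at 0.94 mg/kg was left out this became −0.0098, and 4 were lower at that threshold.

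The peroxisome list had 22 of 31 genes higher and 4 of 31 higher at the unadjusted threshold, beside 4.85% of all probe sets, with a median of 0.023. Leaving out 1 animal took the 4 to between 1 (without replicate 1 at 0.1 mg/kg) and 6. They were Abcd3, a fatty acid transporter of the peroxisomal membrane (0.19 ± 0.060, SE), Phyh, the enzyme of phytanic acid oxidation (0.15 ± 0.060), Pex19, a chaperone of membrane proteins (0.16 ± 0.068), and Ehhadh, the bifunctional enzyme of peroxisomal beta-oxidation (0.19 ± 0.090). PPARalpha and fatty acid oxidation genes were higher for 22 of 32, with 4 of 32 past the unadjusted threshold, beside 4.85% of all probe sets, and a median of 0.041. Without replicate 6 at 943 mg/kg 2 were past it and the median was 0.015. Acads, an acyl-CoA dehydrogenase of mitochondria, measured 9.73 to 9.95 in the high set (median 9.80) and 9.52 to 9.85 in the low set (median 9.68), and its difference was 0.17 ± 0.050 (SE, limma, adjusted p = 0.337). The others were Eci1 (0.23 ± 0.090), Eci2 (0.089 ± 0.043) and Aldh3a2 (0.12 ± 0.042), which handle unsaturated fatty acids and fatty aldehydes.

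Cholesterol synthesis was the longest list whose measured members all lay on one side. All 20 measured genes were higher in the high set and 11 of 20 at the unadjusted threshold, beside 4.85% of all probe sets, but 0 passed in limma (smallest adjusted p = 0.337). The count turned on 1 low animal: without replicate 6 at 943 mg/kg, 18 of 20 were higher, 2 of 20 were past the unadjusted threshold and the median was 0.20. Without replicate 1 at 943 mg/kg, a high animal, 19 were higher and 7 were past it. The median difference over all animals was 0.28 and members ran from 0.026 to 0.48. Genes of 1 pathway move together from animal to animal, so 20 members are not 20 separate observations. Tm7sf2, a sterol reductase, measured 10.57 to 11.02 in the high set (median 10.86) and 9.91 to 11.00 in the low set (median 10.46), and the difference was 0.40 ± 0.12 (SE, limma, adjusted p = 0.337). All 7 high animals lay above the low median and 1 above the low range. Idi1, the isomerase of isoprenoid building blocks, measured 10.49 to 11.60 against 9.51 to 11.59, a difference of 0.48 ± 0.17 (SE). Sc5d and Ebp, which act late in the pathway, differed by 0.24 ± 0.082 and 0.20 ± 0.075. The regulators and carriers in the list, Srebf2, Insig1 and Stard4, differed by 0.087, 0.045 and 0.048.

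**Figure D4:**
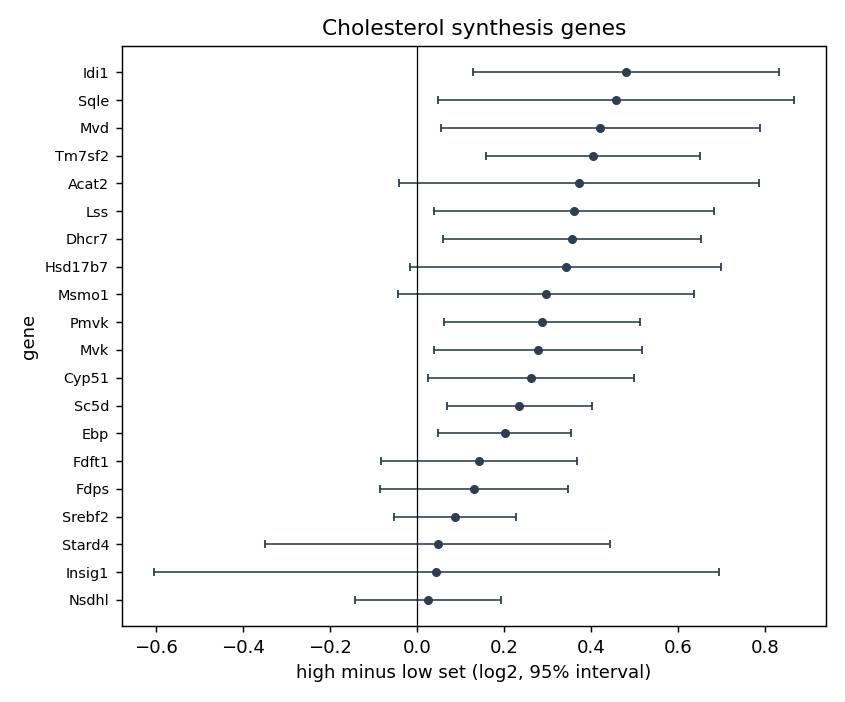
Log2 difference between the high and low sets (horizontal axis, point with 95% interval from limma) for the 20 measured cholesterol synthesis genes. All 20 points lie above 0, from 0.026 to 0.48, and the intervals of 9 include 0.

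Averaged over the 20 genes, the cholesterol synthesis level was 9.83 in the vehicle animal of the high set, 9.81 at 0.1 mg/kg and 9.55 at 0.94 mg/kg. At 943 mg/kg it was 10.35, 10.07, 9.63 and 9.93. The low set ran from 8.97 to 10.34 with a median of 9.62, so the sets overlapped. The vehicle animal stood above the 5 low vehicle animals, while at 0.1 and 0.94 mg/kg the high animal lay within the low range. At 943 mg/kg alone the median difference of the list was 0.43 with 10 of 20 at the unadjusted threshold, and in the other dose groups 0.19 with 1 of 20. Whether these differ was not tested for the list, and 0 probe sets passed the test of that difference in limma (1371 at an unadjusted p under 0.05). Without vehicle replicate 1 the median was 0.27, with 9 of 20. The medians on leaving out 1 animal ran from 0.20 to 0.34.

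Other lists leaned less. Among fatty acid and triglyceride synthesis genes 10 of 20 were higher. At the unadjusted threshold 2 of 20 were higher, beside 4.85% of all probe sets. These were Me1, malic enzyme (0.35 ± 0.11, SE), and Acss2, acetyl-CoA synthetase (0.42 ± 0.17). Of 19 NRF2 and oxidative stress genes 13 were higher, with 1 higher and 1 lower at the unadjusted threshold. Gsta1, a glutathione transferase, was among the lower ones: it measured 12.24 to 12.39 in the high set (median 12.29) and 12.25 to 12.59 in the low set (median 12.41), and all 7 high animals lay below the low median (−0.16 ± 0.041, SE, limma, adjusted p = 0.288). CAR and PXR targets had 10 of 17 higher. At the unadjusted threshold 0 were higher and 2 of 17 were lower, beside 3.76% lower of all probe sets. The 2 were Cyp2a1 (−0.29 ± 0.088) and Ugt2b1 (−0.24 ± 0.11). Of the female-predominant genes 4 of 11 were higher. At the unadjusted threshold 1 was higher and 2 were lower, beside 4.85% and 3.76% of all probe sets. Prlr, the prolactin receptor, differed by −0.49 ± 0.22, and Cyp2c12, also of this list, by 0.58. Of the male-predominant genes 10 of 19 were higher, with 2 higher and 0 lower at that threshold.

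Interferon response genes were lower for 19 of 21, with a median of −0.23 and 0 past the unadjusted threshold. The median animal of the high set had a list level of 6.09 and that of the low set 6.79, with ranges of 5.86 to 7.11 and 5.83 to 7.37 that overlapped almost fully. Single animals moved this value in both directions. Without vehicle replicate 1 the interferon median was −0.025 with 7 of 21 higher, without replicate 1 at 0.1 mg/kg −0.044 with 8 higher, and without replicate 6 at 943 mg/kg −0.087. Without replicate 6 at 0.94 mg/kg it was −0.51 with 4 lower at the unadjusted threshold, and without replicate 3 at 943 mg/kg −0.41 with 2. Among MHC class I and II genes 10 of 12 were lower (median −0.098), and 7 of 12 were higher without vehicle replicate 1 (median 0.027), against a median of −0.26 without replicate 6 at 0.94 mg/kg. The 6 Kupffer cell and macrophage markers, all lower with a median of −0.066, had medians of 0.046 and −0.24 without the same 2 animals.

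Markers of other liver cells did not separate the sets. Mean levels were 6.56 to 7.26 in the high set and 6.25 to 7.35 in the low set for 8 stellate cell and fibroblast markers, 7.68 to 7.79 and 7.55 to 7.98 for 6 endothelium markers, and 4.70 to 4.93 and 4.59 to 5.12 for 5 cholangiocyte markers. At the unadjusted threshold 1 of the 8 stellate cell and fibroblast markers was higher, and 0 of the endothelium and cholangiocyte markers passed. Erythroid markers were higher for 3 of 4, and 2 of 4 were past that threshold, beside 4.85% of all probe sets. The 2 were Ahsp, the alpha-haemoglobin stabilising protein (0.26 ± 0.078, SE), and Hbb, beta-globin (0.28 ± 0.13). Leaving out 1 animal gave 1 to 3 of the 4. The mean level of the erythroid markers ran from 6.57 to 6.99 in the high set and from 6.41 to 7.15 in the low set. The part of blood cells in the differences above was not tested.

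The arrays of the sets were also compared by 6 measures. On the second principal component, which held 7.66% of the variance, the high animals ran from 0.14 to 22.6 and the low animals from −17.3 to 14.3 (two-sided permutation test, p = 0.00474, adjusted over the 6 measures 0.0284). Without vehicle replicate 1, at 22.6, the highest of the high set was 11.0. Array medians, the 3′ to 5′ signal of actin and GAPDH, the median correlation with other arrays and the first component did not pass (adjusted permutation p from 0.0762 to 0.970). The components were computed with the Ephx2 probe set included, and the permutations took no account of dose group. The p for the second component is therefore not independent of the values that chose the sets. The part of the second component in the set differences was not tested.

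Where the sets were compared within dose, calls appeared only in the groups below 943 mg/kg. In those groups alone, where 3 animals were high, Zc2hc1b, a zinc finger protein, differed by −0.54 ± 0.093 (SE, limma, adjusted p = 0.0216), Dynlt2b by −0.60 ± 0.11 (adjusted p = 0.0275) and Abhd11, a mitochondrial hydrolase, by 0.41 ± 0.075 at 1393358_at (adjusted p = 0.0384). These genes, apart from Dynlt2b, are named after their values were seen. Over all animals the same probe sets differed by −0.34, −0.41 and 0.26, each with an adjusted p of 0.288. Zc2hc1b and this Abhd11 probe set were dim, with means of 3.37 and 4.45. Dynlt2b, with a mean of 4.64, lay near the array medians of 4.59 to 4.66. A second Abhd11 probe set, 1399083_at, is not given here, nor are Zc2hc1b and Abhd11 without vehicle replicate 1. At 943 mg/kg alone, with 4 high and 2 low animals, 0 passed, with 1426 at an unadjusted p under 0.05. In limma 0 probe sets passed the test of a difference between these fits, so no dose dependence is read from the calls. Dynlt2b shows what such a call can rest on: the high animals read 3.50 in vehicle, 4.49 at 0.1 mg/kg and 4.31 at 0.94 mg/kg, below all low animals of their own group, while at 943 mg/kg 4.52 to 4.75 overlapped 4.48 and 4.89. Without vehicle replicate 1 the difference of Dynlt2b over all animals was −0.22.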

How the data were processed

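Liver RNA of 36 rats was measured on Affymetrix arrays, 1 per animal. The authors deposited RMA values on the log2 scale, and the submitters' processing notes also name affy; no version is given in the sources used here. The series' design text names R/maanova, which was replaced here by limma 3.58.1 in R 4.3.3.

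Of the probe sets, 57 controls were left out and 31042 were fitted without a filter. The probe table names 1 gene for 20826 probe sets, several for 436 and none for 9780. Of the 20826, 20758 matched a rat gene table (GRCr8, used for names and gene order only). A gene is represented by its brightest probe set.

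The model held a mean per dose group and the Ephx2 set (29 residual degrees of freedom). P values are two-sided, with Benjamini-Hochberg adjustment over all 31042 fitted probe sets in the main fit and a threshold of 0.05. The Ephx2 probe set was in the fit and the adjustment but not in the counts, which cover the 31041 others. The number of arrays limits the precision. The replicates are separate animals.

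Named genes were to be those that passed, up to 15 per direction; as fewer than 5 did, the 5 with the smallest p per direction are named, with measured genes within 5 places of Ephx2, up to 4 members per list and the 10 probe sets most like Ephx2. The sets, lists and tests were chosen with earlier results of these data known. Alternatives were other splits, covariates, filters, scalings, weights, dose groups and each animal left out. The fitting code was tested on simulated data.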

Additional observations from a re-analysis of the deposited data

Results flagged for a closer look

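Dixon's test at the 95% level was run on 7 groups of Ephx2 values and on 37 other sets of values. It marked 4 of each. The rate of about 1 in 20 groups that chance would mark does not apply to the 37. They were read in the same 7 high animals, and most were probe sets named for their set differences.

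The 4 marks at Ephx2 are a description, since these values chose the sets. In 3 dose groups the 1 Ephx2-high animal stood far from the other 5: 8.57 in vehicle, 8.65 at 0.1 mg/kg and 8.46 at 0.94 mg/kg. Within the high set, replicate 4 at 943 mg/kg stood apart with 9.52, 0.71 above the next animal.

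At other probe sets a single animal stood apart from the other 6 of the high set. Vehicle replicate 1 read 3.50 at Dynlt2b and 6.76 at the second Clu probe set. Replicate 2 at 943 mg/kg read 6.37 at RT1-Bb, and replicate 6 at 0.94 mg/kg read 3.73 at Adam2.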

How the results depend on the processing

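The count of neighbours of Ephx2 that passed was 0 under all 25 other fits of the whole table and on leaving out any of the 36 animals. Splits at 6.5, at 7.5 and at the middle of the widest gap gave the same sets, so they could not change the count. A minimum of 1.5-fold could only lower it. The fit without the array least like the others repeats the one without vehicle replicate 1. Probe sets that passed were counted as follows. Without the 943 mg/kg group, 1 was higher and 3 lower (Abhd11; Zc2hc1b, Casp12 and Dynlt2b), with vehicle and the 2 lowest doses 0 and 1 (Casp12, −0.86 ± 0.13, SE, limma, adjusted p = 0.0353), and in the dose groups other than 943 mg/kg, a choice made after seeing the data, 1 and 2. On leaving out 1 animal, 0 to 0 were higher and 0 to 2 lower: Pdcl1-ps1 and 1389701_at without replicate 6 at 0.94 mg/kg, and Dynlt2b without replicate 6 at 943 mg/kg. The other fits gave 0. Unadjusted counts ran from 1605, without vehicle replicate 1, to 3224, without replicate 1 at 0.1 mg/kg, on leaving out 1 animal; they were 1567 without the vehicle group, 1384 with the 3 highest doses and 1426 at 943 mg/kg alone. Fewer were tested among the brighter probe sets (1372 of 15520) and with 1 probe set per gene (1157 of 14216). The exact p for the spread of high animals over dose groups ran from 0.00860 to 0.148. With the replicate number as a block 0 passed (1955 at an unadjusted p under 0.05, smallest adjusted p 0.654). Same-numbered animals correlated with a mean r of 0.0154 (−0.266 to 0.292), beside −0.0030 for other pairs, and 8 of 36 correlated best with their own number. Replicate 1 was a high animal in vehicle, at 0.1 mg/kg and at 943 mg/kg. Whether the number stands for anything that the animals shared was not tested. With that block the interferon median was 0.12 and the macrophage marker median 0.15, both of opposite sign.

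Signs turned at genes whose differences were near 0, and the cause was not tested. Adam2 became −0.033 without the dose covariate, −0.10 without 0.94 mg/kg, and −0.083 with the 3 highest doses or 943 mg/kg alone. Chrna2 became −0.041 with the block, −0.031 without 0.1 mg/kg, and −0.038 with the 3 highest doses or 943 mg/kg alone. Insig1 became −0.10 with the block, −0.20 with the Ephx2 value as a continuous covariate, −0.12 without 0.1 mg/kg, and −0.049 without 943 mg/kg, with vehicle and the 2 lowest doses, or in the groups other than 943 mg/kg. Stard4 became −0.074 with the continuous covariate, and −0.11 without 0.1 mg/kg, with the 3 highest doses or 943 mg/kg alone. In the fits without 943 mg/kg, Ephx1 became 0.058, Ephx4 −0.013 and Nsdhl −0.00474. Dynlt2b was −0.60 and passed without 943 mg/kg and in the groups other than 943 mg/kg. On leaving out 1 animal, the ranges were −0.10 to 0.12 for Adam2, −0.031 to 0.046 for Chrna2, −0.023 to 0.13 for Ephx4, −0.11 to 0.21 for Stard4, −0.12 to 0.25 for Insig1, −0.52 to −0.22 for Dynlt2b and −0.45 to −0.25 for Pdcl1-ps1.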
